A study of Homo sapiens with 9 samples.

Results

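MCF-10A is an established line of human breast epithelial cells that does not form tumours. Its PIK3CA knock-in lines E545K and H1047R were compared here with each other, in 3 RNA-seq libraries per line. These are 6 of the 9 libraries of the study, and the other 3 come from the parental line (WT). Both knock-in lines were maintained without epidermal growth factor (0 ng/ml EGF) in DMEM/F12 with 5% horse serum, insulin at 10 µg/ml, cholera toxin at 100 ng/ml and hydrocortisone at 0.5 µg/ml, and the parental line in the same medium with 20 ng/ml EGF. For the last 24 h all cells were in phenol red-free assay medium with 0.2 ng/ml EGF, 1% charcoal-stripped serum, insulin, hydrocortisone and cholera toxin at the same doses. EGF exposure, from 0 to 0.2 ng/ml, was therefore equal in the 2 lines compared, while the parental line went from 20 down to 0.2 ng/ml. The parental libraries enter only as a level to read against. The labels describe isogenic lines made in earlier work and do not say how many clones stand behind each line or whether the 3 replicates came from separate cultures. The p-values below therefore reflect library-to-library spread alone, and that spread may be technical.

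PIK3CA encodes p110-alpha, a catalytic subunit of class I PI 3-kinase, which makes the membrane lipid PIP3 below activated growth factor receptors. PIP3 recruits the kinases PDK1 and AKT, AKT holds FOXO transcription factors out of the nucleus, and mTOR complex 1 downstream of AKT drives protein, sterol and fatty acid synthesis. E545K lies in the helical domain of p110-alpha, where the regulatory subunit p85 contacts it, and H1047R lies near the end of the kinase domain, which faces the membrane. Both are recurrent changes in breast cancer, and this comparison asks how the transcriptomes of cells with a helical-domain and a kinase-domain change differ in the same medium.

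The 2 changed codons lie in different exons of PIK3CA on chromosome 3 (hg38, plus strand). The codon changed in E545K, a glutamate codon, is at chr3:179218303-179218305 in exon 10, and the codon changed in H1047R, a histidine codon, is at chr3:179234296-179234298 in exon 21 of the transcript ENST00000263967.4. The reference coding sequence around each is shown because these are the only designed differences between the lines, with the codon in capitals and 30 bases on either side. The counts do not show the alleles, so the genotype labels were not checked at these bases.
E545K site, chr3:179218273-179218335: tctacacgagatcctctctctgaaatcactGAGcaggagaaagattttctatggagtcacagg
H1047R site, chr3:179234266-179234328: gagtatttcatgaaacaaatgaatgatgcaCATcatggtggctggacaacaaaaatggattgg

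The H1047R libraries were deposited in a separate count table and were deeper, with 377093507, 605972919 and 518112601 counts against 134245702, 102971299 and 95533991 in E545K. Table, depth and genotype cannot be told apart. Despite the greater depth, genes with any count numbered 34228, 37641 and 38442 in H1047R and 41070, 38681 and 37395 in E545K. Differences between the lines near the floor are therefore uncertain. Protein-coding genes took 77.6 to 78.1% of counts in H1047R and 85.2 to 85.8% in E545K, while 7SL and other miscellaneous RNAs took 8.54 to 8.87% and 4.59 to 4.90%. Replicates were tighter in E545K than in H1047R, with a biological coefficient of variation of 0.0275 against 0.0972. Of the variance among the 6 libraries, 92.7% lay on the first principal component. Markers of basal mammary epithelium were unequal in level, with KRT5 highest (12977 CPM in E545K and 16529 in H1047R). CPM is the usual count scaled by library total, here the TMM-adjusted one. KRT17 had 8843 and 10495 CPM, but KRT14 only 27.8 and 56.8 CPM. Of the 10 on the list, 5 were called higher in H1047R and 4 higher in E545K. Luminal markers summed to 557 to 564 CPM in E545K and 448 to 524 CPM in H1047R. Among them were KRT18 (266 and 150 CPM) and KRT8 (239 and 262 CPM). PTPRC, CD3E and PECAM1, which define blood and vessel cells, had means of at most 0.204 CPM in either line, while single genes of the immune, endothelial and fibroblast lists were present: CSF1R (46.0 and 80.6 CPM), KDR (10.7 and 22.8 CPM), COL1A1 (59.6 and 67.7 CPM) and FAP (47.3 and 28.3 CPM). Summed over the list, immune markers had 57.4 to 59.4 CPM in E545K and 85.1 to 96.2 CPM in H1047R, endothelial markers 10.7 to 12.4 and 21.8 to 24.95 CPM, and fibroblast markers 115 to 117 and 101 to 115 CPM.

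PIK3CA itself was slightly higher in H1047R. It was counted at 39.3, 37.7 and 37.3 CPM in E545K and at 41.9, 44.3 and 43.9 CPM in H1047R, a log2 fold change (H1047R minus E545K, here and below) of 0.19 ± 0.04 (SE) with an adjusted p of 0.00212. The 2 lines do not overlap, both lie below the parental mean of 45.8 CPM, and 35.2% of PIK3CA's exon bases are shared with another gene, so part of its count is uncertain. All 6 class I subunits that passed the filter on low counts were higher in H1047R: besides PIK3CA, the catalytic PIK3CB (0.18) and PIK3CD (0.40) and the regulatory PIK3R1 (0.60), PIK3R2 (0.11) and PIK3R3 (0.45). PIK3R1, the main p85 gene, had 103, 105 and 104 CPM in E545K and 143, 163 and 167 CPM in H1047R, and PIK3R3 had 72.7 to 74.0 and 97.0 to 103 CPM. PIK3CG, PIK3R5 and PIK3R6, the subunits of leukocytes, had at most 0.130 CPM in any of the 6 libraries. With library totals as the only scaling the calls of PIK3CA (log2 fold change 0.03, adjusted p 0.566), PIK3CB (0.02, adjusted p 0.642) and PIK3R2 (-0.05, adjusted p 0.222) were lost. PIK3R2 shares 86.5% of its exon bases and was also not called with the filterByExpr filter, with no filter, with a replicate block (adjusted p 0.0583), or without any of the 3 E545K libraries in turn (adjusted p 0.0830 to 0.121).

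The lines differed widely. Of 16580 genes with at least 1 CPM in 3 of the 6 libraries, 11280 (68%) passed edgeR's quasi-likelihood test at a Benjamini-Hochberg adjusted p under 0.05, 5579 higher in H1047R (33.6%) and 5701 higher in E545K (34.4%). At least 2-fold differences were called for 1677 genes (10.1%), 886 higher in H1047R (5.34%) and 791 higher in E545K (4.77%). In 12116 genes (73.1%) the 3 libraries of one line did not overlap the 3 of the other. These shares are the background against which each group of genes below is read. The balance of 2-fold calls differed by gene type. Of 12975 protein-coding genes 558 were at least 2-fold higher in H1047R and 649 higher in E545K. The counts were 166 and 122 of 2607 long noncoding RNAs, and 65 and 2 of 167 processed pseudogenes (median 0.64). What sets the pseudogene difference was not tested. The median over all tested genes was -0.002, and it moved to -0.16 when library totals were the only scaling, which changed the split of calls to 3614 higher in H1047R and 8283 higher in E545K. Genes just inside and outside the filter were P2RY6 and PKD1L3 (third-highest library 1.00 CPM) and ZNF540 and TGFBR3L (0.9998 and 0.998 CPM). A gene with at least 1 CPM in the 3 libraries of only 1 line also passed, and its direction is then set by the filter.

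**Figure D1:**
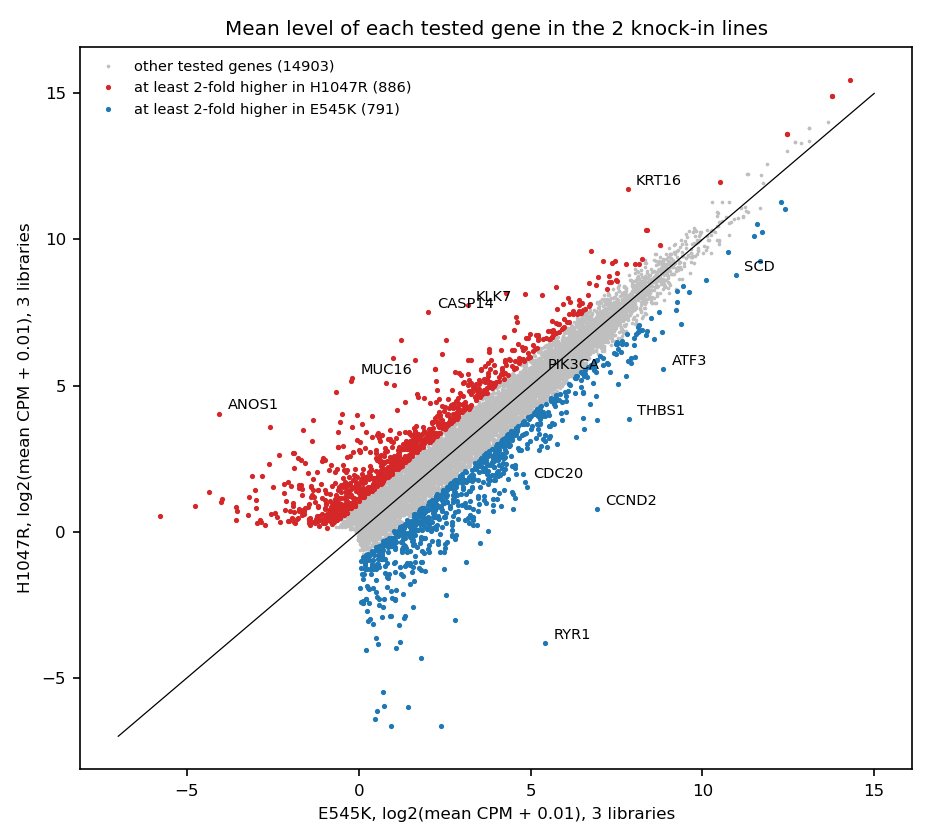
Mean level of each of 16580 tested genes, as log2(mean CPM + 0.01), in 3 E545K libraries (horizontal) and 3 H1047R libraries (vertical), with the line of equal levels. Red points are the 886 genes called at least 2-fold higher in H1047R, blue points the 791 called at least 2-fold higher in E545K, and grey points all others. PIK3CA sits close to the line, ANOS1 and RYR1 far from it.

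The 12 largest rises in H1047R and the 12 largest falls were taken among genes called at least 2-fold with no overlap, at least 10 CPM in the higher line and under 25% shared exon bases. ANOS1, which encodes the secreted matrix protein anosmin-1, rose most and had 0.0563, 0.0834 and 0.00994 CPM in E545K and 14.5, 18.1 and 16.8 CPM in H1047R (log2 fold change 8.31 ± 0.22 SE, adjusted p 5.21e-09). CASP14, the caspase of cornifying keratinocytes, had 3.72, 4.16 and 4.29 CPM in E545K and 162, 186 and 196 CPM in H1047R (5.49 ± 0.09 SE, adjusted p 3.76e-10). KLK7, a protease that loosens the stratum corneum, went from 8.66 to 9.51 CPM up to 201 to 239 CPM (4.59), and CYP4B1, a cytochrome P450, from 2.08 to 2.53 up to 84.4 to 107 CPM (5.31). AZGP1 (6.22), MUC16 (5.47), PI3 (5.43), S100A8 (5.37), OLFML3 (5.21), PLA2G2A (5.14), ATP13A4 (4.97) and RARRES1 (4.55) complete the 12. In E545K these 8 had between 0.0927 and 2.14 CPM, and in H1047R between 10.3 and 74.6 CPM.

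Under the same limits RYR1 and CCND2 fell most, and genes below 10 CPM in E545K, such as MAP1LC3A and H19 described below, are outside this ranking. RYR1, the ryanodine receptor best known from skeletal muscle, had 43.3, 42.3 and 42.4 CPM in E545K and 0.0426, 0.0594 and 0.0808 CPM in H1047R (-9.40 ± 0.11 SE, adjusted p 9.70e-11), with a parental mean of 17.3 CPM. CCND2, cyclin D2, had 121, 122 and 120 CPM in E545K and 2.02, 1.54 and 1.55 CPM in H1047R (-6.17 ± 0.10 SE, adjusted p 3.76e-10), and its parental mean was 164 CPM. THBS1, the matricellular protein thrombospondin-1, had 231 to 236 CPM in E545K and 12.7 to 16.3 CPM in H1047R (-4.02). ATF3, a stress-induced bZIP factor, had 463, 469 and 469 CPM in E545K and 38.4, 50.4 and 53.2 CPM in H1047R (-3.30), close to the parental mean of 56.5 CPM. NR4A3 (-3.94), JAM3 (-3.39), MYBL2 (-3.36), MYH14 (-3.27), RRM2 (-3.23), IL1B (-3.21), KRT86 (-3.21) and CDC20 (-3.15) complete the 12, with 10.0 to 30.1 CPM in E545K and 0.699 to 3.66 CPM in H1047R. The libraries of the lines do not overlap in any of the 24 genes, which the way they were picked requires.

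**Figure D2:**
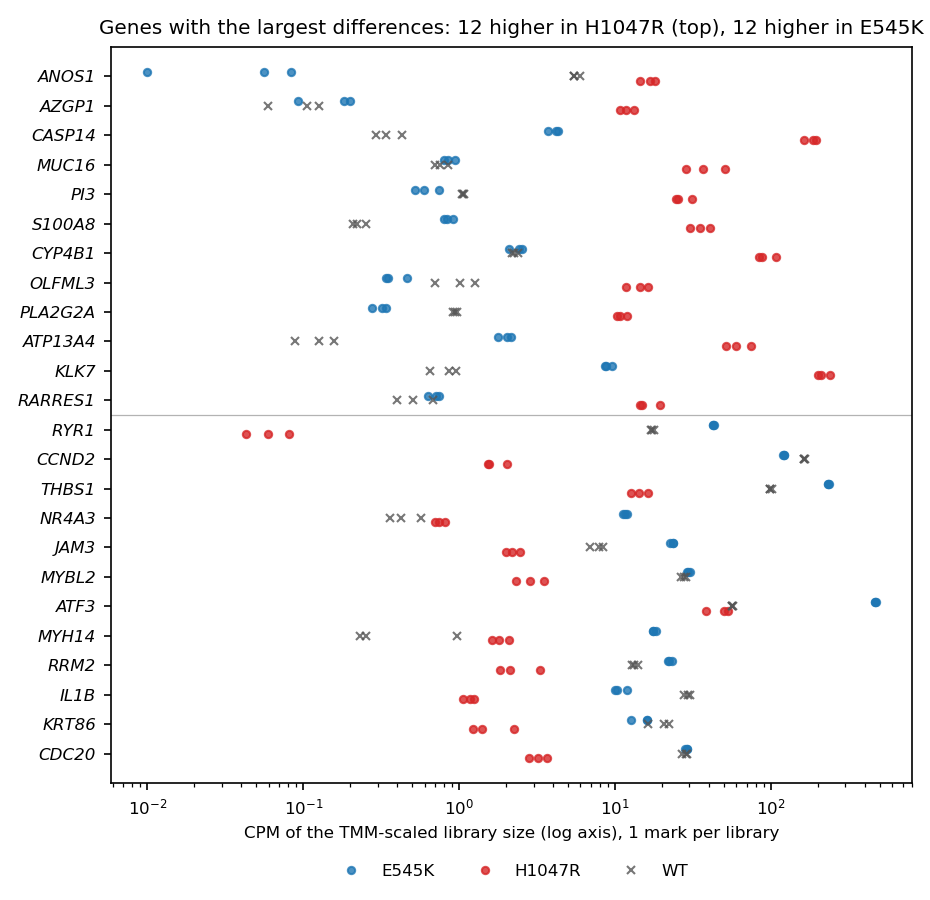
CPM of the TMM-scaled library size, on a log axis, in each of the 9 libraries for the 12 genes with the largest rise and the 12 with the largest fall in H1047R. Circles are E545K (blue) and H1047R (red) libraries and crosses WT. WT lies near the E545K circles for CCND2 and CDC20 and near the H1047R circles for ATF3 and NR4A3.

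The mitotic programme was lower in H1047R throughout. All 43 tested genes of mitosis and cytokinesis were called higher in E545K, 37 of them at least 2-fold, with a median of -2.15 beside -0.002 over all genes, and the member with the smallest difference, CENPA, was at -0.34. Some members, KIF18B among them, passed the filter through E545K alone. When any 1 E545K library was left out 39 were tested, all called higher in E545K. With no filter all 44 were called so. CDC20, which activates the anaphase-promoting complex, had 28.8, 28.9 and 28.1 CPM in E545K and 3.66, 2.81 and 3.18 CPM in H1047R (-3.15 ± 0.09 SE, adjusted p 6.85e-09). DLGAP5, a spindle protein, had 9.64 to 10.5 and 0.919 to 1.46 CPM (-3.12), and KIF18B, a kinesin that shortens microtubules, had 5.02 to 5.23 and 0.367 to 0.927 CPM (-3.09). MYBL2, the B-MYB subunit of the complex that switches these genes on, had 29.0 to 30.1 and 2.32 to 3.503 CPM (-3.36). The proliferation antigen MKI67 was at 46.6 CPM in E545K and 9.12 in H1047R (-2.36). The parental libraries had list medians of -0.30 to -0.33 relative to the E545K mean and the H1047R libraries -1.85 to -2.03. In bulk RNA, fewer cells in division and less RNA of these genes per cell cannot be told apart.

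Replication and nucleotide supply genes went the same way. Of 35 tested, 33 were called higher in E545K, 16 of them at least 2-fold, with a median of -0.97, and POLE (-0.06) and GINS3 (0.13) were not called. Without any 1 E545K library 33 were tested and 31 called higher in E545K. RRM2, the regulated subunit of ribonucleotide reductase, had 21.9, 23.1 and 22.3 CPM in E545K and 3.28, 2.13 and 1.82 CPM in H1047R (-3.23). TK1, thymidine kinase, had 23.4 to 24.6 and 3.46 to 4.17 CPM (-2.62). CDC45, a part of the replicative helicase, was at -2.55 and CLSPN, a checkpoint mediator at forks, at -2.03. Histone cluster genes went the other way as a share of all counts. They took 0.07915 to 0.07923% in the H1047R libraries and 0.06272 to 0.06572% in the E545K libraries. What sets this difference was not tested.

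Regulators of the G1 phase were lower in part. Of 24 tested cyclins, CDK inhibitors, E2F factors and pocket proteins, 17 were called higher in E545K and 4 higher in H1047R, with a median of -0.31. Besides CCND2, the repressors E2F7 (8.15 to 8.30 CPM in E545K, 2.53 to 3.01 in H1047R, -1.58) and E2F8 (-1.57) and the pocket protein RBL1 (-0.69) fell. CCND1, cyclin D1, was at 133 CPM in either line and was not called (0.00). The 4 higher in H1047R were E2F2 (1.68 to 1.82 and 4.71 to 6.16 CPM, 1.62), CDKN1B (p27, 24.7 to 25.9 and 31.8 to 34.7 CPM, 0.41), RBL2 (0.37) and CDKN1A (p21, 0.20). CDKN1B and RBL2 are known to restrain entry into S phase.

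Promoters of the mitotic genes are shown because these genes move together and share known elements. The CHR element, read here as TTTGAA, and the CCAAT box are the textbook sites of the DREAM and B-MYB complexes and of NF-Y. RefSeq promoters (GRCh38.p14, 250 bases before to 50 after the start) were found for 37 of the genes and searched on both strands, and the letters of the 2 motifs share no overlap by themselves. TTTGAA occurred in 27 of 37 (73.0%), beside 9.74% of the 10289 promoters of tested protein-coding genes and 15.4% of all 27305 promoters. CCAAT occurred in 29 of 37 (78.4%), beside 37.1% and 35.7%, and both occurred together in 23 of 37 (62.2%), beside 4.22% and 6.08%. CCAAT also occurred often in the promoters of the cholesterol genes described below (15 of 21, 71.4%), where TTTGAA occurred in 1. Searches of the cholesterol promoters for the sterol element TCACNCCAC found 1 of 21 (4.76%, beside 1.11% of tested genes), and of the ERK-response promoters for the AP-1 site TGANTCA 2 of 23 (8.70%, beside 4.66%). The promoters of CDC20, DLGAP5 and KIF18B, in the direction of transcription, have the motifs in capitals, as TTTGAA or its reverse complement and as CCAAT. MYBL2's window holds neither motif. A match is a description of the letters and not a measured binding site.
CDC20, chr1:43358731-43359030, plus strand: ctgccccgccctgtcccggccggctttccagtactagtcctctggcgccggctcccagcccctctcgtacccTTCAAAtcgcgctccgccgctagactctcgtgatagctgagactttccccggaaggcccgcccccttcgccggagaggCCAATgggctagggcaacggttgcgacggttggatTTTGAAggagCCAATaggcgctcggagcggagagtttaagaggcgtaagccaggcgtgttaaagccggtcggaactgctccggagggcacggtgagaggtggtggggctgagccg
DLGAP5, chr14:55191536-55191835, minus strand: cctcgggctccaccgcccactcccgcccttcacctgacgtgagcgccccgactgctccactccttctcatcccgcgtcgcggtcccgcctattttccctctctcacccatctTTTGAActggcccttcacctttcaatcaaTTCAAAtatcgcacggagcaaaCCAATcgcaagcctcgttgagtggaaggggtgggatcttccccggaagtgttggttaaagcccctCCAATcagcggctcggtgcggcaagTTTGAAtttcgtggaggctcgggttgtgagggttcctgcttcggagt
KIF18B, chr17:44947724-44948023, minus strand: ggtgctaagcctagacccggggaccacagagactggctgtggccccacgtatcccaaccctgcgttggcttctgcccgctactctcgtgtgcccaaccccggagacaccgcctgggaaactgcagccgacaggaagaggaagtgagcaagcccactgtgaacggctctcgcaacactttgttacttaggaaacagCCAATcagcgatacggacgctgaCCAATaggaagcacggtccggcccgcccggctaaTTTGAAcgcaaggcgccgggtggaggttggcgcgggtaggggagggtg

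Cholesterol synthesis was lower in H1047R. Of 26 tested genes of synthesis and sterol regulation, 23 were called higher in E545K, 14 at least 2-fold, with a median of -1.04. INSIG1, the membrane protein that retains SREBP when sterols suffice and is itself an SREBP target, had 92.7, 90.7 and 92.3 CPM in E545K and 18.5, 12.8 and 12.9 CPM in H1047R (-2.64 ± 0.13 SE, adjusted p 1.40e-07). HMGCS1, which makes HMG-CoA, had 214 to 226 and 34.2 to 50.2 CPM (-2.45). FDPS, farnesyl diphosphate synthase, had 386 to 397 and 83.9 to 119 CPM (-2.01). In each of these genes H1047R replicate 1 was the highest of its 3 libraries and still far below E545K. The regulators SREBF2 (-0.29) and SREBF1 (-0.20) fell less. SCAP, which escorts SREBP, was not called (0.09). ABCG1, which exports cholesterol, was higher in H1047R (6.87 to 7.26 and 20.2 to 23.9 CPM, 1.67). The parental libraries had list medians of 0.16 to 0.17 and the H1047R libraries -0.93 to -1.06, relative to the E545K mean.

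Fatty acid genes were lower less uniformly, with 15 of 23 called higher in E545K, 6 higher in H1047R and a median of -0.36. SCD, the stearoyl-CoA desaturase, had 2022, 2006 and 2000 CPM in E545K and 593, 365 and 361 CPM in H1047R (-2.19). The desaturases FADS1 (-1.72) and FADS2 (-1.49) and the citrate lyase ACLY (609 to 619 and 217 to 269 CPM, -1.39) also fell. FASN, the fatty acid synthase, differed little (-0.20). ACSL5, which activates fatty acids, rose (0.636 to 0.852 and 3.66 to 4.30 CPM, 2.41), as did the elongase ELOVL5 (0.71).

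Genes that respond to ERK signalling were mostly lower in H1047R. Of 29 tested response and feedback genes, 18 were called higher in E545K, 11 at least 2-fold, and the median was -0.43. DUSP5, the phosphatase of nuclear ERK, had 38.6, 39.6 and 36.3 CPM in E545K and 6.26, 7.01 and 7.35 CPM in H1047R (-2.47 ± 0.07 SE, adjusted p 5.11e-09). DUSP4 had 25.9 to 26.7 and 6.03 to 8.13 CPM (-1.93), the orphan receptor NR4A1 224 to 235 and 45.0 to 64.5 CPM (-1.99), and NR4A3 11.3 to 11.9 and 0.699 to 0.806 CPM (-3.94). Higher in H1047R were DUSP1 (433 to 445 and 844 to 941 CPM, 1.03), SPRY1 (1.12), DUSP10 (0.74) and SPRY2 (0.27), and 2 to 3 genes were called so when any 1 library was left out. The parental line was lower still, with list medians of -0.95 to -1.01 against -0.36 to -0.50 in H1047R, both relative to the E545K mean. Of the 13 genes of the list that differed at least 2-fold, WT lay nearer H1047R in 12.

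Members of the AP-1 family changed in either direction. Of 18 tested AP-1 and related bZIP genes, 7 were higher in H1047R and 10 higher in E545K. FOSB had 658, 669 and 672 CPM in E545K and 116, 146 and 156 CPM in H1047R (-2.26), and FOSL1 30.6 to 32.6 and 8.07 to 9.33 CPM (-1.88). CREB5 (-1.46) and ATF3 (-3.30) fell too. FOS went the other way, with 217 to 220 CPM in E545K and 565 to 593 CPM in H1047R (1.41), beside a parental mean of 517 CPM.

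Among EGFR-family genes, members fell and rose. AREG, the ligand amphiregulin, had 17.99, 19.02 and 19.04 CPM in E545K and 3.11, 2.46 and 2.38 CPM in H1047R (-2.82 ± 0.10 SE, adjusted p 2.46e-08), and HBEGF 14.8 to 15.7 and 4.73 to 5.99 CPM (-1.51). NRG1, a ligand of ERBB3 and ERBB4, was low in either line (2.26 to 2.72 and 0.307 to 0.358 CPM, -2.84). EPGN, epigen, was higher in H1047R (139 to 142 and 217 to 250 CPM, 0.76). Of the receptors, ERBB3, which signals through PI 3-kinase, had 38.1 to 39.8 CPM in E545K and 74.5 to 80.7 CPM in H1047R (1.00), and EGFR had 1031 CPM in E545K and 751 in H1047R (-0.46). ERRFI1, an inducible inhibitor of EGFR, fell (193 to 201 and 108 to 125 CPM, -0.75). Over the 17 tested members, 9 were called higher in E545K and 7 higher in H1047R.

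FOXO genes were mostly higher in H1047R. Of 26 FOXO factors and known targets, 22 were called higher in H1047R, 7 at least 2-fold, with a median of 0.72, and the count stayed at 22 when any 1 library was left out. DDIT4, the REDD1 inhibitor of mTOR complex 1, had 169, 175 and 178 CPM in E545K and 630, 593 and 623 CPM in H1047R (1.82 ± 0.04 SE, adjusted p 1.96e-09), though 41.2% of its exon bases are shared with another gene. TXNIP, which restrains glucose uptake, had 123 to 126 and 385 to 442 CPM (1.75). BCL6, a transcriptional repressor, had 26.4 to 28.2 and 66.8 to 80.2 CPM (1.45), and FBXO32, a ubiquitin ligase of atrophy, 99.9 to 103 and 249 to 291 CPM (1.45). FOXO3 itself was at 140 and 278 CPM (0.99). GADD45A (-0.94), KLF6 (-0.87) and CAT (-0.11) fell, and IRS2 (-0.23) was not called. The parental list medians were 0.05 to 0.09 relative to E545K, against 0.66 to 0.73 in H1047R. DDIT4, TXNIP and FBXO32 stood higher in WT than in E545K as well, with means of 504, 296 and 213 CPM.

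**Figure D3:**
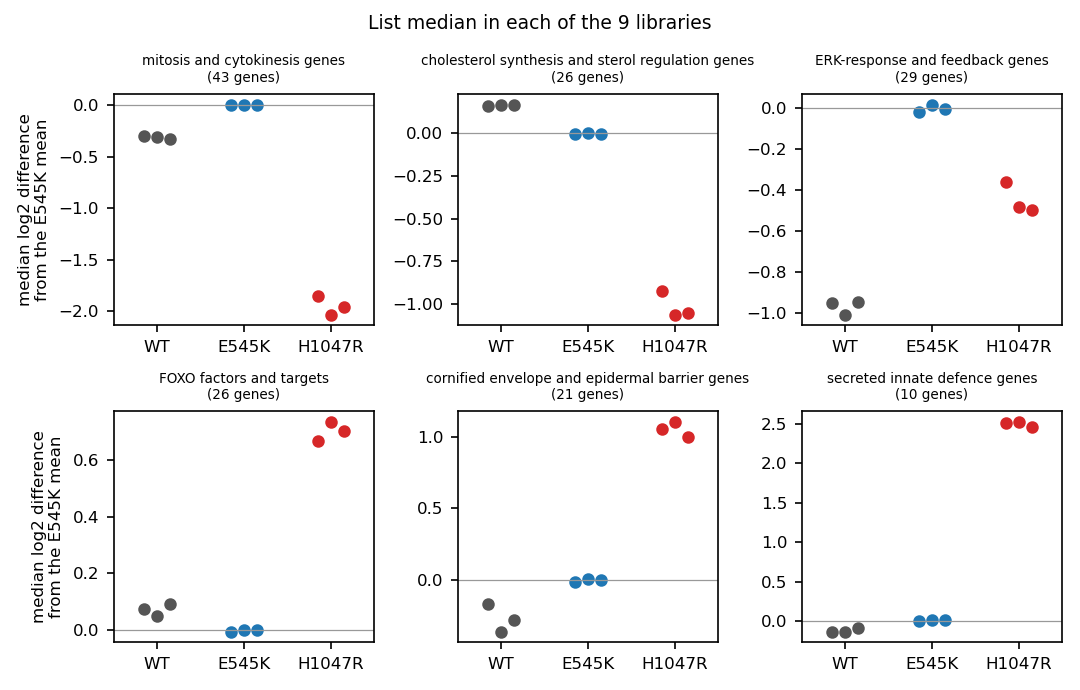
Median log2 difference from the E545K mean over the tested members of 6 gene lists, 1 point per library (WT grey, E545K blue, H1047R red). H1047R is lowest for mitosis and cholesterol genes and highest for FOXO, cornified envelope and innate defence genes. It lies between WT and E545K for ERK-response genes. Some cornified envelope and innate defence genes passed the filter through H1047R alone, and some mitosis genes through E545K alone.

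The kinases and phosphatases between PI 3-kinase and mTOR differed in neither direction as a group. Of 28 tested, 10 were higher in H1047R, 10 higher in E545K and 8 not called. DEPTOR, an mTOR inhibitor, had 2.49 to 2.57 CPM in E545K and 5.08 to 5.44 in H1047R (1.05). SGK1, an AKT-related kinase, rose (84.2 to 86.6 and 128 to 149 CPM, 0.68), as did EIF4EBP2 (0.54) and PDPK1, which encodes PDK1 (67.9 to 69.5 and 88.9 to 98.8 CPM, 0.47). EIF4EBP1, an mTOR substrate that blocks translation, fell (18.2 to 19.6 and 8.79 to 10.9 CPM, -0.98), as did the S6 kinase RPS6KB2 (-0.51).

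Insulin and IGF genes split. IRS1, the adaptor that brings PI 3-kinase to the insulin receptor, had 3.69 to 4.47 CPM in E545K and 8.45 to 9.82 CPM in H1047R (1.20), and INSR, the receptor, 34.7 to 36.5 and 53.1 to 62.8 CPM (0.71). GAB2 (1.04) and IGFL1 (3.56) also rose. The binding proteins IGFBP6 (76.7 to 80.8 and 7.42 to 12.8 CPM, -3.09) and IGFBP2 (16.7 to 19.2 and 3.84 to 5.78 CPM, -2.01) fell. In all, 7 of 14 were called higher in H1047R and 5 higher in E545K.

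MYC was lower in H1047R, and several of its partners and competitors were higher. MYC had 450, 467 and 468 CPM in E545K and 328, 305 and 306 CPM in H1047R (-0.56 ± 0.04 SE, adjusted p 1.92e-06). MXI1 (0.55), MXD4 (0.51) and MXD1 (0.31), which compete with MYC for MAX, and MAX (0.44) were higher in H1047R. MXD3 was lower (-0.12, adjusted p 0.0257), a call lost in 11 of 21 alternative analyses.

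The p53 targets had no shared direction. Of 26, 13 were higher in H1047R and 7 higher in E545K. TP53INP1 (67.1 to 69.3 and 117 to 129 CPM, 0.84), ZMAT3 (0.79), SESN1 (0.73) and the apoptotic BBC3 (0.71) rose, and GADD45A and PLK3 (-0.57) fell. With library totals alone as scaling the counts were 9 and 11.

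Genes of the epidermal barrier were higher in H1047R. Of 38 cornified envelope and barrier genes 21 passed the filter, and 18 of these were called higher in H1047R, 11 at least 2-fold. A gene could pass the filter through H1047R alone, so the count over passing members carries that choice. CASP14 (5.49) and PI3, the protease inhibitor elafin (0.519 to 0.746 and 24.8 to 31.3 CPM, 5.43), led the list. CALML5, a keratinocyte calmodulin-like protein, had 0.222 to 0.282 and 3.92 to 5.00 CPM (4.10), and SBSN, suprabasin, 0.605 to 0.696 and 7.2 to 7.53 CPM (3.53). CALML3 (-1.83, 52.4% of exon bases shared) and the protease inhibitor SPINK5 (-0.83) were lower. The 17 members that did not pass include the late envelope protein LORICRIN, at a mean of 0.0284 CPM in E545K and 0.00135 in H1047R. The parental medians were -0.17 to -0.36 relative to E545K, against 1.00 to 1.10 in H1047R.

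The tissue kallikreins, serine proteases clustered on chromosome 19 that process the skin barrier, were higher in H1047R in each of the 5 tested. KLK8 and KLK11 passed the filter through H1047R alone, and 3 members were tested, all called higher, when any 1 H1047R library was left out. With filterByExpr 7 of 9 tested were called higher in H1047R, and with no filter 7 of 10. KLK10 had 2.15, 1.89 and 1.97 CPM in E545K and 38.7, 28.4 and 29.2 CPM in H1047R (3.99 ± 0.13 SE, adjusted p 1.69e-08). KLK8 went from 0.760 to 0.929 CPM up to 11.8 to 12.3 CPM (3.80, 40.1% of exon bases shared), KLK5 from 4.49 to 5.21 up to 19.5 to 23.5 CPM (2.21) and KLK11 from 0.0649 to 0.119 up to 1.39 to 1.57 CPM (3.93). KLK7 was given above. Of the other 5, KLK13 (0.0371 to 0.0845 and 0.725 to 0.917 CPM) and KLK14 (0.204 to 0.345 and 0.762 to 1.01 CPM) did not overlap between the lines but did not reach the filter. The same holds for KLK9 (0.259 to 0.318 and 0.356 to 0.610 CPM), which shares 96.3% of its exon bases with another gene. KLK6 overlapped, and KLK12 had counts in only 1 E545K library. The lines also did not overlap in 73.1% of all tested genes, and no such share was taken below the filter.

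Keratins differed in either direction, with larger rises than falls. Of 19 tested, 13 were called higher in H1047R, 9 at least 2-fold, and 5 higher in E545K. KRT1 passed the filter through H1047R alone. Without any 1 H1047R library 17 were tested and 11 to 12 called higher in H1047R. With no filter 16 of 22 were called higher in H1047R and 5 higher in E545K. KRT16, the keratin of activated epidermis, had 226, 231 and 225 CPM in E545K and 2961, 3584 and 3519 CPM in H1047R (3.89 ± 0.07 SE, adjusted p 1.22e-09). KRT10 (19.1 to 20.1 and 230 to 327 CPM, 3.87) and its partner KRT1 (0.0927 to 0.129 and 2.32 to 3.09 CPM, 4.55), which mark suprabasal epidermis, rose, as did KRT4 of mucosal epithelium (3.52). Of the keratins of simple epithelium, KRT7 fell from 3359 to 3431 CPM to 1121 to 1314 CPM (-1.48) and KRT18 fell (-0.83), KRT19 rose (1.41 to 1.59 and 2.59 to 3.03 CPM, 0.89) and KRT8 was not called (0.13), and the hair keratin KRT81 fell (3270 to 3313 and 451 to 811 CPM, -2.43), as did KRT86 (-3.21), which is outside the list. Keratin genes are near-identical in part, so reads can be split between copies. The list median of 0.89 became 0.58, 0.53 and 0.60 without H1047R replicate 1, 2 and 3.

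The S100 and serpin families did not move as groups. Among 13 tested S100 genes, S100A8 (0.795 to 0.915 and 30.4 to 40.5 CPM, 5.37) and its partner S100A9 (5.04 to 5.64 and 65.2 to 70.1 CPM, 3.66), which form the antimicrobial calprotectin, rose, while S100A3 (-1.55), S100A2 (2780 to 2937 and 851 to 1446 CPM, -1.38), S100A4 (-0.97) and S100A10 (-0.35) fell. Of 8 clade B serpins, the chromosome 18 neighbours SERPINB2 (0.338 to 0.686 and 3.79 to 6.34 CPM, 3.10) and SERPINB10 (2.92), whose exons in part belong to more than 1 gene (20.0% and 20.2% of bases), rose. S100A8 and SERPINB2 passed the filter through H1047R alone. Without any 1 H1047R library 6 serpins were tested and 1 was called higher in H1047R. With no filter 4 of 13 serpins were called higher in H1047R and 4 higher in E545K. SERPINB13 (-0.75), SERPINB6 (-0.66) and SERPINB1 (-0.43) fell. SERPINB5, maspin, was called lower (-0.13, adjusted p 0.0239) but not in 6 alternative analyses, among them those without E545K replicate 1 or 3 or H1047R replicate 3 (adjusted p 0.0501 to 0.0719 over the 6).

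Secreted host-defence genes were higher in H1047R in each of the 10 that passed the filter of 23 listed, 9 at least 2-fold. Members such as LCN2 and AZGP1 passed through H1047R alone. With filterByExpr 12 of 17 tested were called higher in H1047R and 1 lower, and with no filter 12 of 22 and 2. SAA2, a serum amyloid A, had 2.82, 3.36 and 3.18 CPM in E545K and 69.1, 55.5 and 50.3 CPM in H1047R (4.23 ± 0.13 SE, adjusted p 1.02e-08), though its reads can be split with its near-identical neighbour SAA1. LCN2, the iron-binding lipocalin, had 0.239 to 0.324 and 2.73 to 3.20 CPM (3.38), and CFB, complement factor B, 4.32 to 4.87 and 44.1 to 51.6 CPM (3.36, 45.5% of exon bases shared). AZGP1 (6.22) belongs here too. Complement C3 was at 108 CPM in E545K and 772 in H1047R (2.84). When 1 library was left out, between 6 and 10 members passed the filter and each was still called higher in H1047R. Of 14 mucins 3 passed, and MUC16 (0.797 to 0.943 and 28.7 to 50.5 CPM), MUC19 (3.87 to 4.59 and 9.93 to 18.9 CPM, 1.62) and MUC1 (73.2 to 77.1 and 187 to 192 CPM, 1.33) were higher in H1047R. MUC16 passed through H1047R alone, and the list had no shared direction with other filters: 5 of 11 mucins were called higher and 5 lower with filterByExpr, and 6 and 5 of 14 with no filter.

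Antigen presentation was higher in H1047R. Of 19 MHC class I and presentation genes 13 were called higher in H1047R and 3 lower, with a median of 0.41. B2M, the light chain of every class I molecule, had 190, 174 and 178 CPM in E545K and 379, 401 and 387 CPM in H1047R (1.11 ± 0.04 SE, adjusted p 4.80e-08). HLA-B (82.7 to 85.4 and 184 to 190 CPM, 1.15) and HLA-F (1.12) rose, and these paralogs can exchange reads. CD74 (-0.60) and the class I activator NLRC5 (-0.26) were lower. Interferon-stimulated genes were divided, 14 of 28 higher in H1047R and 7 higher in E545K. The split was 12 and 3 without H1047R replicate 2, 15 and 4 without H1047R replicate 3, and 11 and 10 with library totals as the only scaling. IFI44L (2.39 to 2.96 and 7.14 to 9.16 CPM, 1.64), IFI27 (1.31), IRF7 (1.30) and IFIT2 (1.27) rose, and USP18 (-0.62) and OAS3 (-0.51) fell.

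The interleukin-1 ligands IL1B and IL1A fell and the receptor IL1R1 rose. IL1B had 10.0, 11.9 and 10.3 CPM in E545K and 1.06, 1.24 and 1.17 CPM in H1047R (-3.21), and IL1A 49.4 to 53.1 and 11.4 to 14.4 CPM (-1.99). The receptor IL1R1 rose from 17.6 to 18.0 CPM to 65.7 to 80.8 CPM (2.07). BIRC3, an NF-kB target that blocks cell death, rose (60.6 to 63.3 and 198 to 235 CPM, 1.82), and TNFAIP3, an NF-kB target that damps the pathway (-1.04), and PTGS2, the inducible cyclooxygenase (-1.93), fell. The whole list of 26 split 11 to 12.

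Of 26 listed retinoid genes 14 passed the filter, and of these 9 were called higher in H1047R and 4 higher in E545K. ALDH1A2 and RARRES1 passed through H1047R alone. Without any 1 H1047R library, 6 of 11 tested were called higher in H1047R and 4 lower. With filterByExpr the counts were 8 and 5 of 23, and with no filter 9 and 5 of 26. ALDH1A2, which makes retinoic acid, had 0.148 to 0.268 and 1.58 to 2.62 CPM (3.23), and RARRES1 (4.55), PLAAT4 (1.60) and CRABP2 (25.4 to 25.9 and 53.2 to 67.4 CPM, 1.20) rose. STRA6, the cellular uptake receptor for retinol (6.99 to 7.76 and 1.12 to 1.57 CPM, -2.46), and DHRS3, which returns retinaldehyde to retinol (280 to 282 and 123 to 133 CPM, -1.13), fell.

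**Figure D4:**
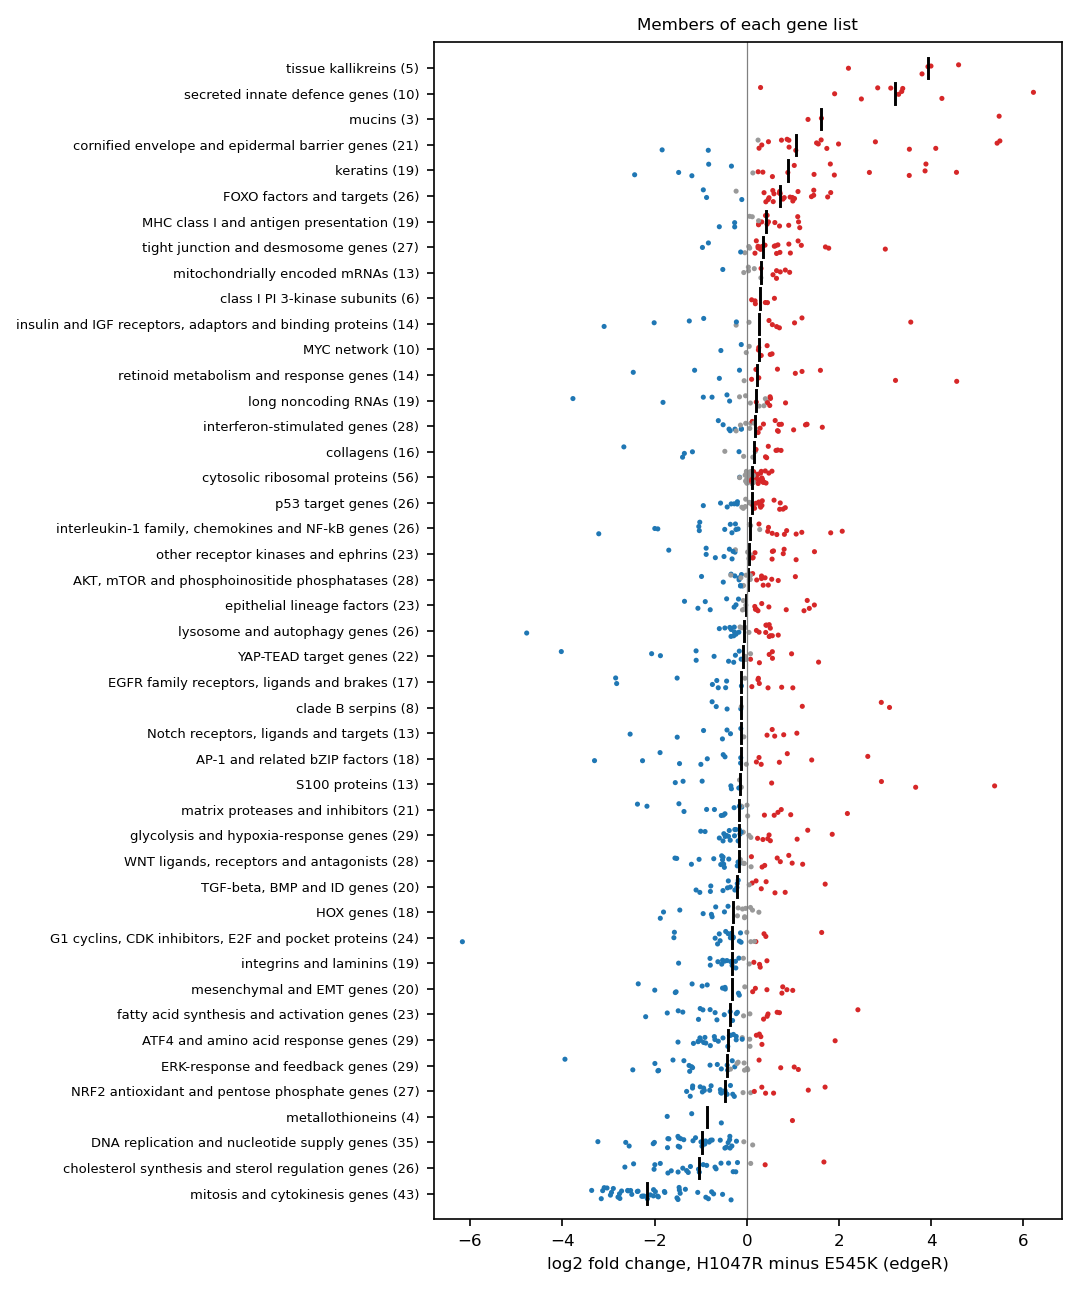
Log2 fold change (H1047R minus E545K) of each tested member of 45 gene lists, ordered by the list median (black bar), with the number tested in brackets. Red members were called higher in H1047R, blue ones higher in E545K, and grey ones were not called. Mitosis genes lie wholly on the left and the tested kallikreins and innate defence genes wholly on the right. Those tested are 5 of 10 kallikreins and 10 of 23 defence genes, some of which passed the filter through H1047R alone. Some mitosis genes passed through E545K alone.

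Cell-cell junction genes were higher in H1047R. Of 27 tested tight junction and desmosome genes 21 were called higher in H1047R and 3 higher in E545K, with a median of 0.35 (15 and 4 with library totals as the only scaling). CLDN1, a tight junction claudin, had 30.2, 30.3 and 30.4 CPM in E545K and 90.9, 109 and 96.4 CPM in H1047R (1.71 ± 0.06 SE, adjusted p 3.21e-08), beside a parental mean of 0.978 CPM. CLDN8 (0.239 to 0.537 and 2.72 to 3.17 CPM, 3.004), OCLN, occludin (1.18), and the desmosomal PKP1 (1.78) rose. CLDN23 (-0.96), PKP2 (-0.83) and JUP (-0.13) fell.

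Mesenchymal and matrix genes were lower more often than higher. Of 20 tested mesenchymal genes 12 were called higher in E545K and 7 higher in H1047R, with a median of -0.32 that became -0.22, -0.17 and -0.20 without E545K replicate 1, 2 and 3. FN1, fibronectin, had 103, 108 and 106 CPM in E545K and 16.9, 23.5 and 21.5 CPM in H1047R (-2.35 ± 0.10 SE, adjusted p 7.46e-08). VIM, vimentin, had 11.2 to 12.1 and 2.70 to 3.08 CPM (-1.99). Both lines lay below the parental means of 595 CPM for FN1 and 106 CPM for VIM. FSTL1 (-1.55) and N-cadherin, CDH2 (8.09 to 8.51 and 2.76 to 2.97 CPM, -1.53), fell, and ZEB2 (1.00) and TPM1 (0.87) rose.

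Laminins and integrins were lower, with 13 of 19 called higher in E545K and 4 higher in H1047R. LAMB3 and LAMA3, chains of a basement membrane laminin of epithelia, had 1084 to 1110 and 379 to 413 CPM (-1.48) and 799 to 804 and 450 to 474 CPM (-0.79). ITGA2 (-0.80) and the fibronectin receptor ITGA5 (-0.63) fell, and LAMB2 (0.44) and ITGAV (0.29) rose. Of 16 tested collagens 7 were called higher in H1047R and 5 higher in E545K. Without E545K replicate 2 the latter were 3, and the balance turned with filterByExpr (7 and 12 of 23) and with no filter (8 and 13). The hemidesmosome collagen COL17A1 (863 to 878 and 1261 to 1435 CPM, 0.63), COL7A1 of anchoring fibrils (319 to 320 and 467 to 609 CPM, 0.74), COL16A1 (0.67) and COL4A5 (0.47) rose, and COL4A1 of basement membranes (175 to 179 and 65.3 to 68.8 CPM, -1.39) and COL9A2 (-2.67) fell.

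Matrix proteases were lower in 12 of 21 and higher in 6. ADAM19 (9.05 to 9.19 and 1.74 to 1.80 CPM, -2.37), ADAMTS6 (-2.16), the inhibitor SERPINE2 (-1.47) and ADAMTS15 (-1.36) fell, while MMP7, matrilysin (0.690 to 0.927 and 3.49 to 3.79 CPM, 2.18), and MMP24 (0.95) rose. Targets of YAP and TEAD, the effectors of the Hippo pathway, divided 11 to 7 of 22. THBS1 (-4.02) and CCN2, connective tissue growth factor (261 to 265 and 58.6 to 69.0 CPM, -2.06), fell most, with NT5E (-1.87) and DLC1 (-1.10), while GADD45B (26.6 to 27.7 and 73.4 to 88.3 CPM, 1.56) and PTPN14 (0.97) rose. Among TGF-beta and BMP genes 12 of 20 were called higher in E545K and 7 higher in H1047R. TGFBI had 5003 to 5023 CPM in E545K and 2445 to 2531 CPM in H1047R (-1.02), ID1 46.3 to 49.0 and 20.6 to 24.99 CPM (-1.10), and LTBP1 (-0.79) and BMP1 (-0.78) fell, while the co-receptor TGFBR3 (7.25 to 8.35 and 21.3 to 27.8 CPM, 1.70) and ID2 (0.83) rose.

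Lineage factors of breast epithelium divided 11 to 8 of 23. GATA3, a luminal and epidermal factor, had 18.1, 18.7 and 17.2 CPM in E545K and 45.1, 46.4 and 46.8 CPM in H1047R (1.36 ± 0.04 SE, adjusted p 1.32e-08). ELF3 (28.1 to 28.9 and 75.3 to 84.0 CPM, 1.47) and the grainyhead factors GRHL3 (5.94 to 7.15 and 15.5 to 17.1 CPM, 1.31) and GRHL1 (1.24), which act in epidermal differentiation, rose. FOXA1, the luminal pioneer factor, had 8.86 to 9.93 and 3.27 to 4.03 CPM (-1.35), and SOX9, a progenitor factor, 106 to 110 and 50.1 to 55.6 CPM (-1.06).

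Notch genes had no shared direction. The receptor NOTCH3 had 179 to 186 CPM in E545K and 356 to 424 CPM in H1047R (1.09), and NOTCH2 182 to 189 and 291 to 355 CPM (0.80). The target HES1 had 327, 336 and 337 CPM in E545K and 109, 127 and 115 CPM in H1047R (-1.51 ± 0.05 SE, adjusted p 2.37e-08), NRARP had 18.9 to 21.4 and 2.97 to 4.41 CPM (-2.53), and the glycosyltransferase LFNG fell (-0.94). DLL3 (-0.53, adjusted p 0.0197) was not called without H1047R replicate 2 (adjusted p 0.0734) or with no filter. Over 13 genes, 7 were higher in E545K and 5 higher in H1047R.

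Of 28 WNT genes 16 were called higher in E545K and 8 higher in H1047R. WNT5A had 7.06 to 7.95 and 14.5 to 15.9 CPM (0.98) and its paralog WNT5B 5.69 to 6.05 and 1.95 to 2.09 CPM (-1.56). The antagonist DKK1 (38.2 to 41.2 and 15.1 to 18.98 CPM, -1.20), the repressor TCF7L1 (-1.52) and WNT10A (-1.03) fell, and the receptor FZD8 rose (10.2 to 11.6 and 23.0 to 27.6 CPM, 1.21). Other receptor kinases and ephrins divided 10 to 9 of 23, with EPHA4 (9.70 to 9.94 and 24.4 to 29.8 CPM, 1.47), ROR1 (1.07), CSF1R (0.81) and EFNA5 (0.79) higher and FGFR4 (13.3 to 13.6 and 3.79 to 4.51 CPM, -1.69) and EPHB6 (-0.88) lower in H1047R.

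Amino acid supply and redox genes were lower in H1047R. Of 29 ATF4 and amino acid response genes 21 were called higher in E545K, with a median of -0.41. GARS1, glycyl-tRNA synthetase, had 197, 198 and 198 CPM in E545K and 78.1, 67.1 and 65.4 CPM in H1047R (-1.49 ± 0.06 SE, adjusted p 6.27e-08), and it lies in the chromosome 7 segment described below. PHGDH of serine synthesis (51.6 to 53.6 and 22.9 to 24.5 CPM, -1.16), the leucine transporter SLC7A5 (3012 to 3086 and 1400 to 1595 CPM, -1.06) and asparagine synthetase, ASNS (-1.05, 49.3% of exon bases shared), fell, and VLDLR (1.92) and SESN2 (0.33) rose. Of 27 NRF2 and pentose phosphate genes 19 were called higher in E545K, with a median of -0.47. TKT, transketolase (1700 to 1739 and 729 to 820 CPM, -1.18), NQO1 (356 to 364 and 140 to 180 CPM, -1.17), AKR1C2 (-1.30) and ABCC3 (-1.23) fell, while AKR1B10 (10.8 to 11.9 and 32.4 to 39.5 CPM, 1.70) and the efflux pump ABCC2 (54.0 to 57.4 and 135 to 141 CPM, 1.33) rose.

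Of 29 glycolysis and hypoxia genes 17 were called higher in E545K and 8 higher in H1047R, with differences mostly under 2-fold. Phosphofructokinase PFKP (308 to 316 and 160 to 172 CPM, -0.90), GPI (-0.59), enolase ENO1 (1421 to 1445 and 972 to 1064 CPM, -0.51) and the lipase inhibitor ANGPTL4 (-0.998) fell. The hypoxia-induced ADM, adrenomedullin (8.57 to 9.55 and 29.4 to 36.0 CPM, 1.85), and EGLN3 (1.32) rose. Lysosome and autophagy genes divided evenly, 11 and 11 of 26. MAP1LC3A, an LC3 gene of autophagosomes, stood apart with 6.003, 6.07 and 5.48 CPM in E545K and 0.205, 0.190 and 0.246 CPM in H1047R (-4.77 ± 0.14 SE, adjusted p 8.81e-09), beside a parental mean of 5.66 CPM. CTSD (0.68, 53.3% of exon bases shared), SQSTM1 (0.51) and MCOLN1 (0.51) rose and GLA fell (-0.59).

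Of the metallothioneins, which bind zinc and copper, 4 of 9 passed the filter. MT2A (392 to 448 and 158 to 238 CPM, -1.19), MT1F (3.81 to 4.25 and 1.13 to 1.34 CPM, -1.73) and MT1E (-0.55) were lower in H1047R, and MT1X was higher (25.5 to 26.7 and 50.1 to 55.6 CPM, 0.99). MT1A, MT1G, MT1H, MT1M and MT3 had at most 0.0704 CPM in the 6 libraries. Reads can be split between these paralogs.

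Among 18 tested HOX genes 9 were called higher in E545K and 9 were not called. HOXA3 had 15.6, 17.4 and 16.7 CPM in E545K and 5.96, 6.25 and 5.92 CPM in H1047R (-1.45). HOXA2 (-1.87), HOXB6 (-1.81) and HOXB3 (-0.95) also fell. HOXA-AS2, an antisense RNA within the bounds of HOXA3 on the other strand, fell too (16.7 to 17.4 and 4.55 to 5.24 CPM, -1.82), and without strand the reads of such a pair cannot be told apart. Among other long noncoding RNAs, the imprinted H19 had 5.11, 5.47 and 6.07 CPM in E545K and 0.381, 0.328 and 0.509 CPM in H1047R (-3.77), beside 22.7 CPM in WT. MIR205HG, the host transcript of an epithelial microRNA (272 to 273 and 461 to 519 CPM, 0.84), TINCR of epidermal differentiation (0.51), NORAD (0.51) and MALAT1 (0.50) rose.

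Mitochondrially encoded mRNAs were called higher in H1047R for 7 of 13 and lower for 1, MT-CO2 (-0.52). The median was 0.31, but it fell to 0.16 without H1047R replicate 1, and the H1047R libraries spread from 0.05 to 0.66. MT-CO1 was steady across libraries (3680 to 3791 and 6054 to 6329 CPM, 0.73), whereas MT-ND1 had 514, 436 and 372 CPM in H1047R against 227 to 236 CPM in E545K (0.93). MT-ND6 (0.84) and MT-ND2 (0.65) spread in the same way. Cytosolic ribosomal protein genes differed little, with 25 of 56 called higher in H1047R, 1 called lower and a median of 0.11. The count of 25 ranged from 18 to 38 when 1 library was left out, and with library totals alone 10 were called higher and 15 lower. RPS18 (0.55), RPS14 (0.48), RPL29 (0.42) and RPL26 (0.40) led. RPS7 (-0.16, adjusted p 0.0277), whose libraries overlap between the lines, was not called with upper-quartile scaling, with filterByExpr or without E545K replicate 2 or 3 or H1047R replicate 2 or 3 (adjusted p 0.0614 to 0.127).

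A stretch of chromosome 7 stood apart. Over its first 50 Mb (hg38), 263 tested genes had a median of -0.64, and 208 of them (79.1%) were called higher in E545K beside 34.4% of all genes. Relative to the parental line these genes had a median of 0.73 in E545K and of 0.15 in H1047R. Beyond 60 Mb the 533 genes of the chromosome had a median of 0.07. All 18 tested genes between 50 and 60 Mb, where EGFR lies, were higher in E545K, with a median of -0.75. Of 258 windows of 10 Mb with at least 20 genes, 6 had a median beyond 0.5 in either direction, and 4 of them are on this stretch. The others were higher in H1047R. They are the mitochondrial genome (median 0.93, 29 of 35 genes called higher in H1047R) and chromosome 19 from 20 to 30 Mb (0.55, 16 of 30). GARS1, LFNG, CREB5, HOXA2, HOXA3 and HOXA-AS2 lie within the chromosome 7 stretch. The share of their differences that goes with their position was not tested.

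The parental level lay nearer to E545K for most of the genes that separate the lines. Of the 1677 genes called at least 2-fold, the WT mean was nearer to E545K on the log2 scale in 1360 (81.1%) and nearer to H1047R in 317. It lay between the lines in 858, above both in 299 and below both in 520. Genes higher in H1047R had WT nearer E545K in 770 of 886, and genes higher in E545K in 590 of 791. The lists differed in this: WT was nearer E545K in 36 of 37 mitosis genes, 15 of 15 cholesterol genes and 9 of 9 innate defence genes, but nearer H1047R in 12 of 13 ERK-response genes and 5 of 6 AP-1 genes. WT and E545K were counted in the same table and H1047R in another, and WT alone was kept in EGF, so what sets this position was not tested.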

How the data were processed

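Read counts per gene were used as deposited by the authors, in 2 tables, one with WT and E545K and one with H1047R. The columns taken as E545K are headed only as mutant, and were assigned because the sample descriptions tie that table to WT and E545K alone. The submitters' processing notes name Trim Galore 0.4.0, cutadapt, FastQC, STAR, SAMtools 1.5 and featureCounts 2.0.0. Per the file headers, exons of GENCODE 32 (hg38) were counted without strand, each mate by itself and for every overlapping gene, so overlapping genes, antisense partners and paralogs share reads. Ribosomal RNA was depleted and reads were 150 bp pairs, per the labels' protocols.

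The tables were joined on 60609 gene identifiers, and 60295 were matched to symbols by a table of gene names supplied with the reference (314 were not). Genes with at least 1 CPM in 3 of the 6 libraries were tested with edgeR 4.0.16 (R 4.3.3; glmQLFit and glmQLFTest, TMM scaling) and Benjamini-Hochberg adjustment over all 16580. Levels are CPM with TMM-scaled totals. WT stayed out of the fit and was scaled with the same reference. The standard error is the log2 fold change divided by the square root of F. A count of 0 allows 3 counts, 0.00856 CPM over the E545K group and 0.00211 over the H1047R group, for counting error only. Replicate pairs varied by 4.28 to 6.68 times Poisson noise in E545K and by 94.9 to 220 times in H1047R, so none looked like 1 library deposited again. The fit was tested first on simulated counts with the same spread in both lines and few changed genes. It was therefore not tested under the unequal spread and the many differences seen here.

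The members and lists were chosen with earlier results of these data known, so no test of a list was made. Named genes are PIK3CA, the 12 largest rises and 12 largest falls (at least 2-fold, no overlap, at least 10 CPM in the higher line, under 25% shared exon bases), all members of lists of up to 10, and of longer lists up to 4 called members in the direction with more calls and 2 in the other. MKI67, CENPA, CCND1, SREBF1, SREBF2, SCAP, FASN, FOXO3, C3, LORICRIN, SAA1, EGFR and members named to complete a short count were chosen after their values were seen. Some list members are not reported here. DESeq2 1.42.0, limma 3.58.1, other scalings and filters, thinning, a replicate block, GC offsets and leaving out each library were the alternatives.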

Additional observations from a re-analysis of the deposited data

How the results depend on the processing

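In 21 alternative analyses, 19 planned and 2 (GC offsets) added after seeing the data, between 9047 and 14829 genes were called, and none of the 2-fold genes shared with the reported set changed direction. Leaving out 1 library gave 9736 to 11844 calls, DESeq2 11362 and limma voom 11427. The 2-fold counts followed the filter on low counts: 2094 higher in H1047R and 1892 higher in E545K with filterByExpr, 2466 and 2870 with none, and 475 and 442 at 5 CPM, since these test 28546, 50103 and 12656 genes. With H1047R thinned to the E545K depth 1685 genes were called at least 2-fold, 1633 of them in the reported set. Of the comparisons of 262 named genes with each alternative, 5302 kept direction and call, 33 lost the call and 1 turned, PIK3R2 with library totals (-0.051). These do not cover all pairs of gene and alternative, since some alternatives did not test every named gene. KLK8 and KLK11, for example, were not tested without any 1 H1047R library.

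Deviations of same-numbered libraries had correlations of -0.079, -0.042 and -0.028, beside -0.042 to 0.085 for libraries with different numbers. With 3 libraries per line and a wider spread in H1047R, these values cannot show whether the numbers pair the libraries. A fit with the replicate number as a block called 10967 genes, 870 and 803 at least 2-fold, and with a GC offset 11084, 871 and 795.

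Several list medians changed sign. With library totals these were AKT and mTOR genes (-0.14), p53 targets (-0.055), other receptor kinases (-0.11) and ribosomal proteins (-0.050). With filterByExpr they were clade B serpins (0.17) and collagens (-0.48). With no filter they were insulin and IGF genes (-0.10), collagens (-0.47), interleukin-1 and NF-kB genes (-0.23) and long noncoding RNAs (-0.038), and lineage factors at 5 CPM (0.10) and among genes with under 25% shared exon bases (0.18). The cause was not tested. A count of 0 in 1 library allows 0.0211 to 0.0298 CPM in E545K and 0.00524 to 0.00853 CPM in H1047R, a limit for counting error only.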
